A study of Homo sapiens with 6 samples.

Results

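The 240 protein-coding genes of chromosome 19 whose symbol is ZNF followed by a number were examined for binding of TLE3, a corepressor of the Groucho family, in MDA-MB-453, an established human breast cancer cell line. The genes were taken from RefSeq on GRCh38.p14 by symbol and position alone, out of 1451 protein-coding genes of the chromosome and 20037 in the genome. Chromatin immunoprecipitation and sequencing (ChIP-seq) with a TLE3 antibody gave 2 libraries labelled siNS, the control silencing, and 2 labelled siFOXA1, in which the target was FOXA1, a forkhead factor that opens chromatin in luminal breast cells. All 4 libraries came from the same unmodified line, received an additional cross-linker before formaldehyde and are labelled as biological replicates 1 and 2 of their group. The labels give neither the time of silencing nor the level of FOXA1, and 2 input libraries, labelled MDA-MB-454, were not analysed here. The measurement was 1 list of TLE3 peaks per library, without reads, so the depth behind a peak is unknown.

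Most zinc finger proteins of the C2H2 class on chromosome 19 descend from tandem duplications and lie in large clusters. Many carry a KRAB domain, which brings TRIM28 (KAP1) and with it the histone methyltransferase SETDB1 and HP1 proteins to DNA, and many bind and silence transposable elements. TLE3 does not recognise DNA itself and reaches chromatin through transcription factors, and it represses through its own contacts with histones and deacetylases. The genes are therefore a family of repressors of their own and, here, the place at which another corepressor was mapped.

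The 4 lists held 45105 (siNS 1), 46586 (siNS 2), 12249 (siFOXA1 1) and 13754 (siFOXA1 2) peaks on the autosomes and X. Chromosome 19 held 7.27% and 5.25% of the siNS peaks and 1.61% and 1.50% of the siFOXA1 peaks. Overlapping peaks of all lists were joined into 72272 merged regions. A region was given to every gene that it lay in or within 1 kb of, which put 290 regions at the zinc finger genes and 2832 at the other 1211 genes of the chromosome. A region with a peak of both libraries of a group is called a consensus region of that group. Among 13 marker genes, 10 had a siNS consensus region, with 6 regions each at the luminal genes KRT8, GATA3 and ERBB2 and none at KRT5, PTPRC or PECAM1, although CD3E and VIM had 2 and 1. Peaks show binding, not expression, and do not test the identity of the cells.

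Start sites of the zinc finger genes are shown for the 3 with the strongest siNS consensus region over an outermost start before which no other gene of any kind, noncoding genes included, overlaps the bases printed, and for 2 long genes that had no region in any library although their start windows were rich in CpG. Each sequence is the 250 bases before the RefSeq start on GRCh38.p14, read 5′ to 3′ on the gene's strand, at chr19:56121296-56121545 (ZNF787, minus strand), chr19:55476367-55476616 (ZNF628, plus), chr19:39996810-39997059 (ZNF546, plus), chr19:22634074-22634323 (ZNF492, plus) and chr19:53467483-53467732 (ZNF813, plus). Capitals mark the letters CCGGAAG (the core that ETS factors bind), GGGCGG (the GC box of SP factors) and CCAAT (the CCAAT box of NF-Y) on either strand.
ZNF787: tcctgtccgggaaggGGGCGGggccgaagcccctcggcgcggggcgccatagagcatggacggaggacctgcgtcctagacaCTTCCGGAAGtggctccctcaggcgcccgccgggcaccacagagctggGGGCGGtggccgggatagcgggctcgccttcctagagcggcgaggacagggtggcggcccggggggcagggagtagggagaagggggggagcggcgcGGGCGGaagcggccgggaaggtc
ZNF628: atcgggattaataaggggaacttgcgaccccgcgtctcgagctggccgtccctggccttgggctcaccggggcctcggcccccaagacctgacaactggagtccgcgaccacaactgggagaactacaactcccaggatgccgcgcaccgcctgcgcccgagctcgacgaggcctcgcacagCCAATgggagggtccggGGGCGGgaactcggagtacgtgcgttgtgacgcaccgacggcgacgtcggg
ZNF546: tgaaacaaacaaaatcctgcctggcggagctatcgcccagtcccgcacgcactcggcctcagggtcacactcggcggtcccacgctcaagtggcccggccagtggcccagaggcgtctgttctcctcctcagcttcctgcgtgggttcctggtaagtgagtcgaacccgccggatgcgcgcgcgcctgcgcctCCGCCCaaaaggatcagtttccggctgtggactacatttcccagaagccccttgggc
ZNF492: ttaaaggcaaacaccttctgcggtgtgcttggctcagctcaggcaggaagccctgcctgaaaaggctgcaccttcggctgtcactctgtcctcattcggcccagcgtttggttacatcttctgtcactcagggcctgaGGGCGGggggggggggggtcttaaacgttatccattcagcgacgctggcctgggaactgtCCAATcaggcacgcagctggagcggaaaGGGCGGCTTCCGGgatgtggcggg
ZNF813: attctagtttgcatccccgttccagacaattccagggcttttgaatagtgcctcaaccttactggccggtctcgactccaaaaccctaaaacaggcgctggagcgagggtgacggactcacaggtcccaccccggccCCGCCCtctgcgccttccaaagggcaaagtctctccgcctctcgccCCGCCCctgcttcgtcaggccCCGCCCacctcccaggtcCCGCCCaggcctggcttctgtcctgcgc
The sequence of ZNF787 holds 2 ETS matches that overlap on opposite strands and 3 GC boxes, and ZNF628 has 1 GC box and 1 CCAAT box. ZNF546, whose start region scored 34.04 (siNS 1) and 36.8 (siNS 2) at chr19:39996467-39997557, has 1 GC box. The unoccupied ZNF492 has 1 ETS match, 2 GC boxes and 1 CCAAT box, and the unoccupied ZNF813 has 4 GC boxes. By these letters the bound and unbound starts could not be sorted. A match describes the letters only and does not show that a factor was there.

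The zinc finger genes carried TLE3 peaks in the control libraries about as often as the other genes of the chromosome and almost never in the siFOXA1 libraries. In siNS 1, 180 of the 240 genes (75%) had a peak, and in siNS 2 it was 148 (61.7%). In siFOXA1 1 and 2 the numbers were 8 (3.33%) and 6 (2.50%). Both siNS values lay far above both siFOXA1 values, with means of 68.3% ± 9.43 and 2.92% ± 0.589 (SD, n = 2 libraries each). The difference of 65.4 percentage points gave p = 0.33 in a two-sided exact permutation test, the smallest p that 2 against 2 libraries allow, so no difference between these groups can pass a threshold of 0.05. The siNS lists were also longer. When every list was shortened to its best-scored peaks at the length of the shortest list, the means were 16.0% in siNS and 2.92% in siFOXA1, a difference of 13.1 points.

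The other 1211 genes of chromosome 19 had a peak in 75.1% (siNS 1), 67.4% (siNS 2), 8.92% (siFOXA1 1) and 9.83% (siFOXA1 2) of cases. Their siFOXA1 mean of 9.37% ± 0.642 was 13.2% of their siNS mean of 71.3% ± 5.49, while for the zinc finger genes the same ratio was 4.27%. The 237 ZNF-number genes of other chromosomes had peaks in 87.3%, 79.3%, 11.4% and 13.5% of cases, in the same order, and a ratio of 14.9%. The share of zinc finger genes with a peak minus that of the other chromosome 19 genes was -0.145 and -5.72 points in siNS 1 and 2 and -5.58 and -7.33 points in siFOXA1 1 and 2. The mean gap differed by 3.53 points between the conditions, less than the 3.94-point SD of the siNS gaps (two-sided exact permutation p = 0.667), and its sign depended on how regions and peaks were chosen: it was -11.3 with lists of equal length and -0.667 when regions at gene ends alone were used. A difference in points between zinc finger genes and the other genes was thus not detectable with 2 libraries a group.

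**Figure D1:**
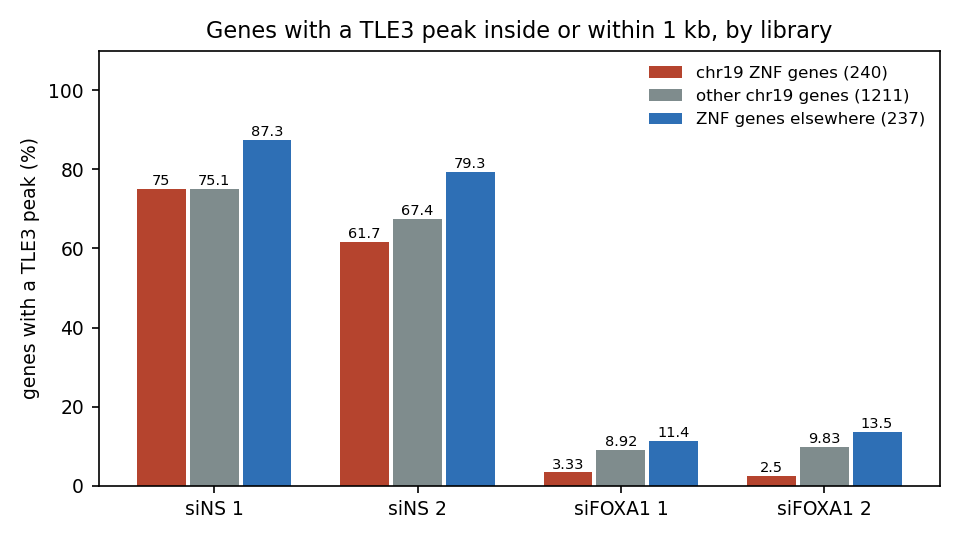
Share of genes (y axis, percent) with a TLE3 peak inside the gene or within 1 kb of it in each of the 4 libraries (x axis), for the 240 zinc finger genes of chromosome 19, its 1211 other protein-coding genes and the 237 ZNF-number genes elsewhere. Each bar is 1 library, and the zinc finger genes go from 75% and 61.7% in siNS to 3.33% and 2.50% in siFOXA1.

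Both control libraries agreed on fewer genes. A siNS consensus region was found at 130 of the 240 zinc finger genes (54.2%), beside 61.1% of all protein-coding genes of chromosome 19, 63.5% of all protein-coding genes and 62.4% of the other chromosome 19 genes. Zinc finger genes are longer than the other genes of the chromosome, with a median of 23131 bp against 12798 bp, and longer genes can hold more regions. When the other genes were weighted to the lengths of the zinc finger genes, their share was 66.2%. In each of 5 classes of gene length the zinc finger genes had the lower share, from 45.8% against 57.0% in the shortest class to 58.3% against 79.6% in the longest. This gap depended on the second library: with siNS 1 alone the shares were 74.6% and 75.1%. Of the ZNF-number genes on other chromosomes 181 of 237 (76.4%) had a siNS consensus region, whereas of 29 other genes of chromosome 19 with zinc finger family names such as ZFP or ZSCAN 12 did (41.4%). Against other genes within the clusters described below, the zinc finger genes had the higher share in most clusters that held such genes, though some held few of them.

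The remaining zinc finger genes divided into 62 with siNS regions of single libraries, 47 with no region at all (19.6%) and ZNF226, whose only region was a siFOXA1 peak. A region of any library was thus present at 80.4% of the zinc finger genes, beside 77.2% of the other chromosome 19 genes and 77.7% of all protein-coding genes, so genes without a region were about as frequent as elsewhere. A region of at least 1 siNS library was present at 80% of the zinc finger genes and 77.2% of the other chromosome 19 genes, but a siNS consensus region at 54.2% and 62.4%. Genes with siNS regions of single libraries only were thus more frequent among the zinc finger genes, which was not tested. Of the 62, 44 had peaks of siNS 1 alone, 12 of siNS 2 alone and 6 of both in different places. Many of the genes are close copies of each other, and since it is not known where reads of copied sequence were placed, a missing region is uncertain inside such genes. Most of the bound genes had a single consensus region: 104 genes had 1, 22 had 2, 2 had 3, ZNF787 had 4 and ZNF444 had 5.

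TLE3 at the zinc finger genes was mostly a promoter signal. Their siNS consensus regions numbered 150, and 116 of them (77.3%) were at an end of the gene (no more than 1 kb away), compared with 679 of 1243 (54.6%) at the other genes of the chromosome. For 137 of the regions the strand of the gene was known: 98 were at the start (71.5%), 5 at the far end (3.65%) and 32 inside the gene (23.4%), and 107 (78.1%) touched a RefSeq start window, the 300 bases from 250 before to 50 after a start. At the other genes 47.3% were at the start, 7.69% at the far end and 44.9% inside. Regions counted as inside a gene include some over internal starts, so they do not measure the gene body alone, and these shares were not tested against each other. Around the start the signal was narrow. A siNS 1 peak covered 59.5% of 210 zinc finger gene starts and a siNS 2 peak 37.1%, and 2000 bp into the gene 0.476% and 1.43% were covered. At the other genes the starts were covered in 52.0% and 40.9% of cases, and the position 2000 bp downstream in 7.69% and 6.46%.

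**Figure D2:**
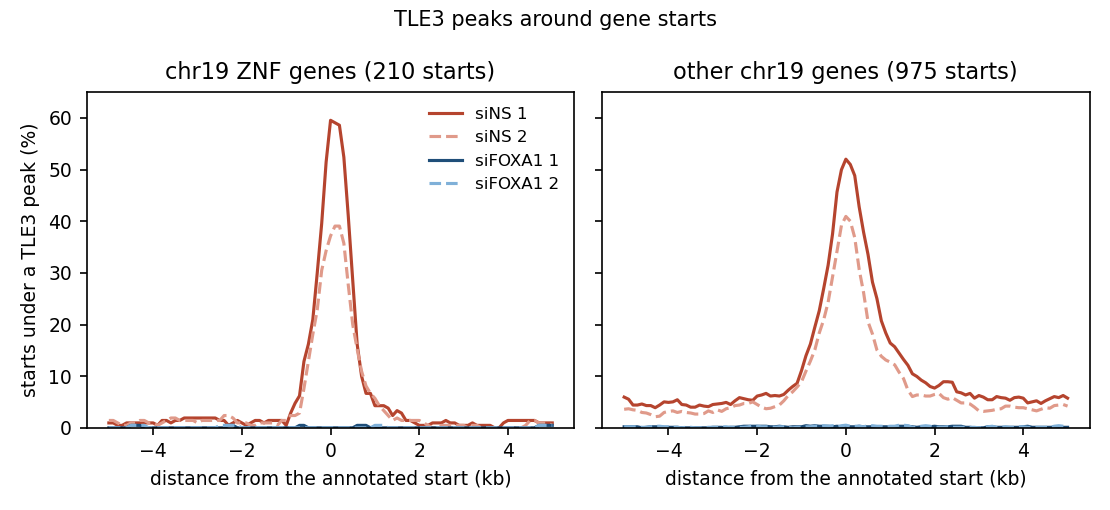
Share of gene starts lying under a TLE3 peak (y axis, percent) at each distance from the annotated start (x axis, kb, positive into the gene), with 1 line per library, for 210 zinc finger genes of chromosome 19 and 975 other genes of the chromosome. The siNS lines reach 59.5% and 39.0% at zinc finger starts and are near 0 beyond 2 kb on both sides, where the other genes keep a higher base, and the siFOXA1 lines stay at the bottom of both panels.

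The regions were also weaker than those of the other genes of the chromosome. Strength was taken as the rank of the authors' score within each siNS list, from 0% for the strongest peak to 100%, averaged over siNS 1 and 2. The median rank was 47.0% at the zinc finger genes and 32.9% at the other genes. In median score, regions of the zinc finger genes had 16.0 in siNS 1 and 11.7 in siNS 2, beside 25.01 and 16.5 at the others. Their median width was 820.5 bp against 906 bp. When the siNS consensus regions of the whole genome were split by rank into 10 classes of equal size, the strongest class held 1 region of a zinc finger gene and 128 of other chromosome 19 genes.

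Among the zinc finger genes the strongest siNS consensus region was at ZNF296, a C2H2 gene outside the clusters (chr19:45071500-45076478). It spanned chr19:45070688-45072584 at the gene's far end, which is also an end of CLASRP, and scored 531 (siNS 1), 312 (siNS 2), 76.6 (siFOXA1 1) and 75.8 (siFOXA1 2). It ranked in the top 0.178% of the siNS peaks and was the only region of a zinc finger gene with a peak in every library. The start of ZNF296, shared with GEMIN7 of the SMN complex, had a separate region of ordinary strength (51.1 and 33.2) with no siFOXA1 peak. So the region kept at ZNF296 was not at its promoter.

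The next strongest regions had no siFOXA1 peak, and most of them lay over a start. ZNF524, which encodes a telomere-binding protein, had scores of 82.6 and 47.1 at an end it shares with FIZ1 (chr19:55599047-55600822). At ZNF787 the start region, which holds the sequence printed first, scored 82.6 and 46.2 (chr19:56120268-56121902). Both regions were near the top of the siNS lists, at mean ranks of 8.61% and 8.76%. ZNF558, a KRAB zinc finger gene, had 73.3 and 47.8 over a start inside the gene (chr19:8831848-8833114), near MBD3L1. ZNF653 had 76.0 and 45.4 at the start it shares with ECSIT, an adaptor of Toll-like receptor signalling (chr19:11504899-11506292), and a second region at its far end with 66.7 and 33.2. ZNF566 scored 50.5 and 56.8 (chr19:36489080-36489952). At ZNF628 the start scored 48.4 and 36.2 (chr19:55475933-55477058) and at ZNF428 it scored 57.6 and 31.9 (chr19:43619023-43620308). Of 48 zinc finger windows with an opposite start within 1 kb, 28 (58.3%) had a siNS consensus region, and of 162 without one 73 did (45.1%). For the other genes the shares were 73.5% and 42.7%.

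**Figure D3:**
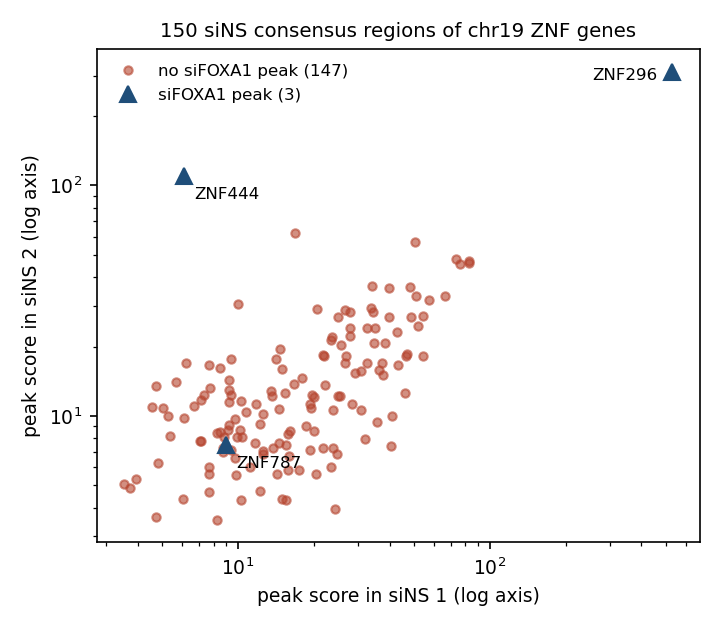
Peak score in siNS 1 (x axis, log scale) against siNS 2 (y axis, log scale) for the 150 siNS consensus regions at zinc finger genes, with the 3 that also held a siFOXA1 peak as triangles. ZNF296 stands alone at the top (531 and 312), while ZNF444 (6.11 and 110) and ZNF787 (8.98 and 7.46) are weak in at least 1 control library.

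Of the 150 siNS consensus regions of the zinc finger genes, 3 also held a siFOXA1 peak (2.0%, exact 95% binomial interval 0.414 to 5.73, counting error only). Over all genes of chromosome 19 the share was 10.9%, and at the other genes it was 148 of 1243 (11.9%, 10.2 to 13.8). Each siFOXA1 library had a peak on 2 of the 3. At gene ends 1 of 116 zinc finger regions was kept (0.862%) against 40 of 679 (5.89%), and inside genes 2 of 34 (5.88%) against 108 of 564 (19.1%). Kept regions of the other genes were mostly the strong ones, 72 of the 128 in the strongest class (56.3%) and 1 of 131 in the weakest. At the rates of the other genes for the same strength class and position, 4.69 of the 150 zinc finger regions would be kept (3.13%), against the 3 observed. Strength and position thus moved with the kept share, and their part in it was not tested. With 1 siNS library left out, every region with a peak of the other siNS library counts as a consensus region, so the base changes. The kept share was then 0.8% (2 of 250) without siNS 2 and 2.88% (6 of 208) without siNS 1.

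The other kept regions lay inside 2 neighbouring genes. In ZNF444, a SCAN-domain zinc finger gene, the region at chr19:56141948-56143539 scored 6.11 (siNS 1), 110 (siNS 2) and 9.19 (siFOXA1 2). In ZNF787 the region at chr19:56090490-56091325 scored 8.98, 7.46 and 6.59 (siFOXA1 1). Neither was found in both siFOXA1 libraries. The control libraries differed about the first, which was strong in siNS 2 alone.

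A siFOXA1 consensus region was present at 5 zinc finger genes (2.08%), beside 6.0% of the chromosome's genes, 13.1% of all protein-coding genes and 82 (6.77%) of the other chromosome 19 genes. A peak of at least 1 siFOXA1 library was present at 9 (3.75%), beside 10.5% of the chromosome, 22.4% of all genes and 143 (11.8%) of the other chromosome 19 genes. These regions numbered 12, and 8 of them lay inside genes. None touched a start window: 0 of 210 zinc finger windows had a siFOXA1 peak, which allows a share of up to 1.43%, while 22 of 975 windows of other genes did (2.26%).

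Of the 5 genes, ZNF296 has been described, and the regions at the others were not siNS consensus regions. ZNF254, a KRAB zinc finger gene, had at chr19:24053895-24054675 peaks of siNS 2 (26.04), siFOXA1 1 (15.7) and siFOXA1 2 (29.4), and its start held a siNS consensus region without a siFOXA1 peak (27.0 and 18.2). ZNF577 overlaps FPR3, a formyl peptide receptor gene, and its siFOXA1 regions lie in that overlap. The one at chr19:51807839-51808636 scored 25.6 and 27.4 in siFOXA1 1 and 2 and had no siNS peak, and the one at chr19:51806998-51807732 scored 65.2 in siNS 2 and 6.54 and 7.13 in siFOXA1. They cannot be assigned to ZNF577 rather than FPR3. ZNF230 had 11.1 and 8.32 (chr19:44008034-44008416) and ZNF507 12.7 and 5.48 (chr19:32373619-32374088), both in siFOXA1 alone. The start of ZNF507 was bound in siNS (43.1 and 16.7) and not in siFOXA1. Single siFOXA1 1 peaks lay within 1 kb of the starts of ZNF226 (6.97) and ZNF235 (8.59), outside their start windows. None of the siFOXA1 peaks at these genes overlapped a control region at a gene start.

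CpG content marked the starts differently in the zinc finger genes. RefSeq start windows were matched for 210 of the 240 genes and 975 others, and the outermost window was used for 35 zinc finger genes with several. A siNS consensus region touched 101 of the 210 windows (48.1%), beside 48.6% of all windows of the chromosome, 52.4% of all windows of the genome and 475 of 975 (48.7%) of the others. Among windows with an observed-to-expected CpG ratio of 0.6 or more, 79 of 163 zinc finger windows were occupied (48.5%) and 417 of 579 others (72.0%). Below 0.6 it was 22 of 47 (46.8%) against 58 of 396 (14.6%). The same contrast with the other genes was present in each siNS library. In siNS 1 the CpG-rich windows were occupied in 66.9% against 80.8% and the CpG-poor ones in 51.1% against 21.97%, and in siNS 2 in 49.1% against 73.6% and 51.1% against 16.4%. Occupancy of the other genes therefore went with CpG content, from 10.1% under 0.4 to 80.3% at 1.0 or more, while the zinc finger genes had 25% (of 12 windows), 54.3%, 52.0%, 48.6% and 31.3% (of 16 windows) over the same 5 classes. ZNF-number genes on other chromosomes had 79.7% (of 158) in CpG-rich and 37.8% (of 37) in CpG-poor windows, and all genes had 72.6% and 13.97%. By library, the zinc finger windows of the 5 classes were occupied in 25%, 60%, 66.7%, 69.4% and 56.25% of cases in siNS 1. In siNS 2 it was 25%, 60%, 52.0%, 50% and 31.25%. Their share thus rose up to a ratio of 1.0 in siNS 1 and only up to 0.6 in siNS 2. No test was made of any of these differences, which compare genes within the same 2 libraries.

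**Figure D4:**
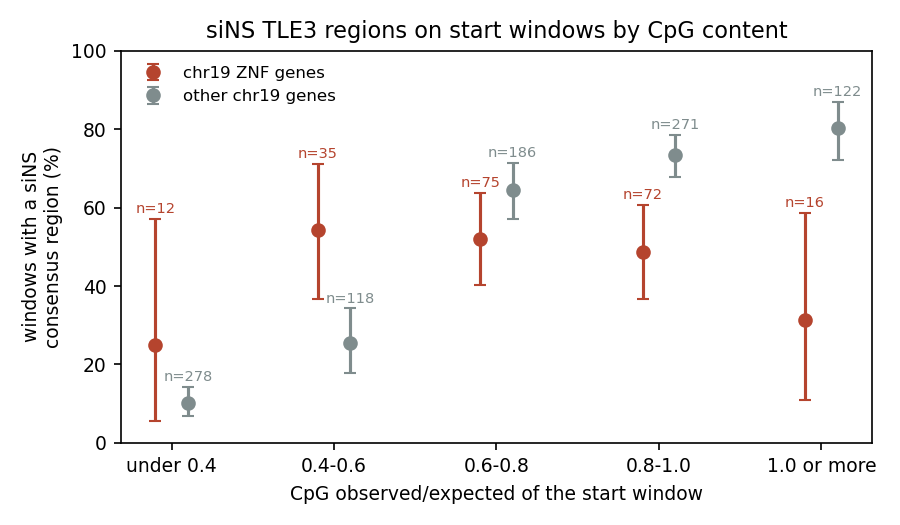
Share of start windows with a siNS consensus region (y axis, percent) by observed-to-expected CpG ratio of the window (x axis, 5 classes), for zinc finger genes of chromosome 19 and the other genes of the chromosome. Bars are exact 95% binomial intervals over windows (counting error only) and n is the number of windows, and the other genes climb from 10.1% to 80.3% while the zinc finger genes stay between 25% and 54.3%.

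The letters of the windows differed as well. The ETS core CCGGAAG was found on either strand in 92 of 210 zinc finger windows (43.8%), in 131 of 975 others (13.4%) and in 18.8% of all windows of the chromosome. ZNF-number genes elsewhere had it in 70 of 195 (35.9%). The matches sat close to the start: the 104 matches had a median position of -15 bp, with quartiles of -34 and 4 bp, and 81 (77.9%) were within 50 bp of it. Zinc finger windows with the ETS core were occupied in 41.3% of cases and those without it in 53.4%. For the other genes the order was the opposite, 67.2% with and 45.9% without. Windows of the other genes with the core also had a higher median CpG ratio than those without (0.854 against 0.686). At the zinc finger genes these medians were 0.757 and 0.765. The part of CpG content in these shares was not tested. Zinc finger windows without a siNS consensus region had the core in 49.5% of cases and those with one in 37.6%.

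Other motifs were less unequal. The GC box GGGCGG was in 69.0% of zinc finger windows, 65.3% of others and 66.0% of all windows of the chromosome, and CCAAT was in 53.3%, 37.6% and 40.4%. GC boxes were in 75.2% of the occupied and 63.3% of the unoccupied zinc finger windows. The forkhead core TGTTTAC, the letters that FOXA1 and its relatives bind, was in 2 of the 210 zinc finger windows (0.952%), 0.821% of the others and 0.844% of all. One of those windows was occupied in siNS and the other was not. HES-type CACGCG, which proteins that recruit Groucho corepressors bind, was in 16.2%, 15.5% and 15.6% of zinc finger, other and all windows. The E-box CACGTG (3.81%, 8.51% and 7.68%), the GATA letters AGATAA (5.24%, 5.85% and 5.74%), the AP-1 site TGACTCA (2.38%, 3.90% and 3.63%) and the NRF1 core GCATGCGC (3.81%, 5.54% and 5.23%) were at most as frequent at zinc finger genes as elsewhere. All were searched on both strands, and an absent match says only that these letters are not in this window.

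Occupancy was uneven along the chromosome. Members less than 500 kb apart were joined, which gave 10 clusters of at least 5 genes and left 12 of the 240 genes outside. The gene shares with a siNS consensus region were highest in the clusters ZNF554 to ZNF77 (4 of 5, 80.0%), ZNF302 to ZNF792 (4 of 5) and ZNF565 to ZNF573 (19 of 24, 79.2%). Of the 12 genes outside the clusters, 11 had one (91.7%). The lowest shares were in the clusters ZNF175 to ZNF331 (14 of 39, 35.9%) and ZNF264 to ZNF446 (16 of 41, 39.0%) towards the end of the long arm. In between were ZNF575 to ZNF180 (10 of 23, 43.5%), ZNF101 to ZNF254 (19 of 37, 51.4%), ZNF653 to ZNF791 (13 of 25, 52.0%), ZNF628 to ZNF835 (11 of 16, 68.8%) and ZNF414 to ZNF846 (9 of 13, 69.2%). Other protein-coding genes also lay within the cluster spans. Their share was below that of the zinc finger genes in ZNF414 to ZNF846 (20% of 15) and ZNF565 to ZNF573 (33.3% of 6). So it was in ZNF628 to ZNF835 (34.6% of 26) and ZNF264 to ZNF446 (33.3% of 15). It was above in ZNF575 to ZNF180 (50% of 10) and ZNF175 to ZNF331 (37.5% of 16), and in ZNF302 to ZNF792 (1 gene). ZNF653 to ZNF791 and ZNF101 to ZNF254 held 4 and 2 such genes, with 50% each, just below the 52.0% and 51.4% of their zinc finger genes. The order of the clusters by their zinc finger genes depended partly on the library. ZNF264 to ZNF446 had peaks at 75.6% of its genes in siNS 1 and 46.3% in siNS 2, and ZNF175 to ZNF331 at 66.7% and 46.2%, whereas ZNF101 to ZNF254 had 62.2% in both.

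Windows in the least occupied clusters were not poor in CpG. In ZNF175 to ZNF331 all 32 windows had a ratio of 0.6 or more and 10 were occupied (31.3%), and in ZNF264 to ZNF446 12 of 35 such windows were (34.3%). In ZNF414 to ZNF846, 9 of 12 CpG-rich windows were occupied (75%), and in ZNF565 to ZNF573 12 of 21 (57.1%). The cluster ZNF101 to ZNF254, beside the centromere, had the lowest CpG ratio, with a median of 0.438, and accounts for many of the CpG-poor windows. The ETS core was in 72.4% of its windows, in 62.5% and 65.8% of those of the 2 least occupied clusters, and in 8.33% and 17.4% of those of ZNF653 to ZNF791 and ZNF565 to ZNF573. It was also in 3 of the 4 windows of ZNF302 to ZNF792, one of the most occupied clusters. ETS letters and CpG content differed between clusters without following the order of occupancy throughout, and their parts in it were not tested. Of the 47 genes with no region, 38 were in the 4 largest clusters. They were 12 of the 39 genes of ZNF175 to ZNF331 and 10 of the 37 of ZNF101 to ZNF254. ZNF264 to ZNF446 had 9 of 41 and ZNF653 to ZNF791 had 7 of 25, beside 19.6% of all 240 zinc finger genes.

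**Figure D5:**
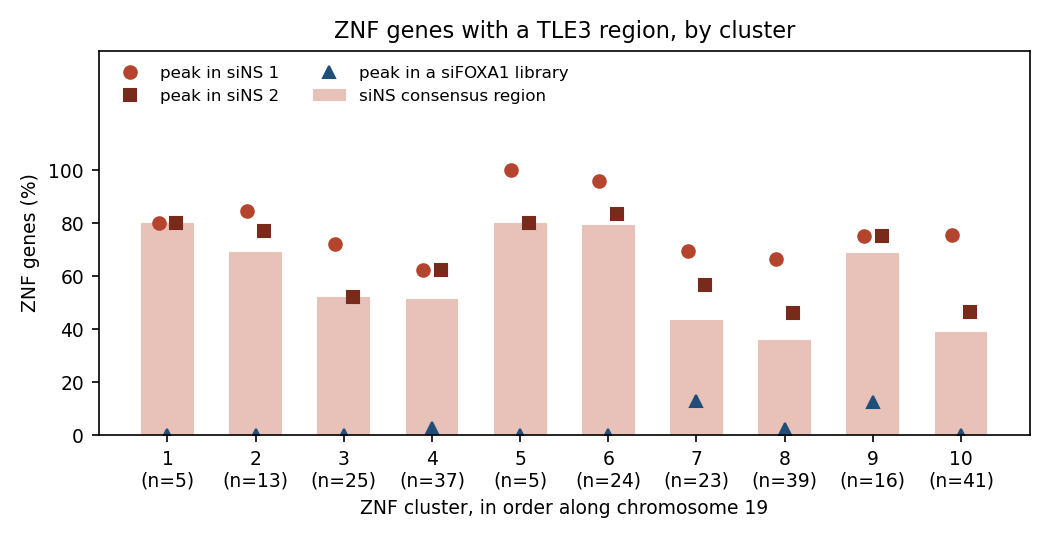
Share of zinc finger genes (y axis, percent) in each of 10 clusters in order along chromosome 19 (x axis, with the number of genes) that had a siNS consensus region (bars), a peak in siNS 1 or siNS 2 (circles and squares) or a peak in at least 1 siFOXA1 library (triangles). The bars range from 35.9% in the cluster numbered 8 to 80.0% in 1 and 5, and the triangles stay near the bottom in all 10.

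Members with known roles illustrate the range. ZNF274, which recruits SETDB1 to the far ends of zinc finger genes, had a siNS consensus region at its start (chr19:58182428-58183953, 23.8 and 10.6) and 4 regions of single siNS libraries. ZNF331, an imprinted gene, had 3 consensus regions over internal start windows, scoring 34.5 and 28.2, 9.36 and 17.7, and 8.48 and 16.2 in siNS 1 and 2. ZNF460 had 1 at its start (7.76 and 13.3). ZNF536, a repressor expressed in neurons, was the longest gene at 487995 bp and had the most regions, 11, of which 2 were consensus regions inside the gene (16.9 and 62.3, and 7.12 and 11.8). No siFOXA1 peak was found at these 4 genes.

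In other well-studied members TLE3 was sparse. ZNF91, which represses SVA retrotransposons, had a single siNS 2 peak inside the gene (6.13). ZNF350, a partner of BRCA1 also called ZBRK1, likewise had 1 siNS 2 peak (7.72), and ZNF146, a protein made almost wholly of fingers, 1 siNS 1 peak at its start (6.77). ZNF154, a gene often methylated in tumours, had none. The longest genes without a region were ZNF676 (81216 bp), ZNF208 (71129 bp) and ZNF560 (60817 bp). ZNF324, with 4 regions, had its consensus region at the far end (19.6 and 12.3). That end (58475436) lies within 1 kb of the start of ZNF446 (58476352), so a region there can count for both genes. ZNF446 had 1 siNS consensus region, at its start.

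Genes whose products work with KRAB zinc finger proteins were also examined, in a list of 30 chosen by hand that includes ZNF274. A siNS consensus region was present at 29 of the 30, beside 63.5% of all protein-coding genes, including SETDB1 with 1, the HP1 genes CBX1, CBX3 and CBX5 with 1 each, and the DNA methyltransferase gene DNMT3A with 7. The exception was TRIM28, the central KRAB cofactor, which lies on chromosome 19 and had no region in any library. A siFOXA1 peak was present at 10 of the 30, beside 22.4% of all protein-coding genes. Of their 49 siNS consensus regions 6 were kept (12.2%), with 1 each at MTA1, CHD3, DNMT1, DNMT3A, DNMT3B and EHMT1. Over all genes of chromosome 19 the kept share was close to this, at 150 of 1376 (10.9%). The list spans the genome, for which no kept share is given here, so 12.2% is not read as retention at these genes. No region of SETDB1 or of the HP1 genes was kept.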

How the data were processed

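TLE3 ChIP-seq was measured in 4 libraries of MDA-MB-453. The authors deposited 1 peak list per library with 5 columns and no header (chromosome, start, end, name, score). Trim Galore, BWA 0.7.5a, SAMtools and MACS2 had been run on hg38, per the submitters' processing notes. How thresholds were set, how inputs were used and where reads of near-identical zinc finger genes were placed was not given in the sources used here. An effect of this read placement was not tested. The definition of the deposited score is not stated, and it was used only to rank or describe peaks within a list. Replicates of each group were taken from the titles; the siFOXA1 2 list carries another number in its name.

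Peaks sharing at least 1 bp were merged (72272 regions, equal to bedtools), positions are 1-based, and genes and start windows came from RefSeq GRCh38.p14. As a check of the code, peaks were planted over gene ends, and 1262 of 1262 gene and library pairs were found. The 1 kb rule had to find these, so the check does not measure wrong assignments to adjacent genes. Group means were compared by two-sided exact permutation over 6 relabelings; gene lists were described by counts. The members and lists were chosen with earlier results of these data known. Named genes were a panel of 8, the 8 strongest siNS members, the 5 with most regions, those with a siFOXA1 consensus region, the 3 longest without a region and the 3 strongest kept; ZNF546, ZNF492, ZNF813, ZNF226 and ZNF235 were added after their values were seen. Alternatives were score and length cuts, overlap, distance, shared regions, comparison genes and leaving out each library. Protein features were not analysed here. Python 3.11.15, pandas 2.3.3, scipy 1.17.1 and matplotlib 3.10.9 were used. With no reads in the lists, depth is unknown; intervals cover counting error only.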

Additional observations from a re-analysis of the deposited data

How the results depend on the processing

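The share of zinc finger genes with a peak was higher in siNS than in siFOXA1 in every alternative run (13.1 to 71.7 points, exact permutation p = 0.33 in all unpaired ones), and the kept share stayed between 0.8% and 4.76%. The difference in the gap to other genes (3.53 points) was reversed when the lower-scored peaks of each list were dropped at its median (-11.4), lists of equal length (-11.3), gene ends only (-0.667) and shared regions left out (-0.603); the cause was not tested. With 1 library left out it ranged from 1.03 to 5.89 points. Genes with a siNS consensus region (54.2%) came to 25.4% at the median score and 7.92% with equal lengths, which hold fewer peaks, and to 54.2% to 74.6% with 1 library left out. Their difference from other chromosome 19 genes (-8.26 points) was -18.8, -15.7 and, without shared regions, -12.6, was -8.26 to -0.479 with 1 library left out, and was -22.2 against ZNF-number genes elsewhere and 12.8 against other zinc finger names. Genes with a siFOXA1 consensus region (2.08%) came to 1.25% at the median score and without shared regions, 3.33% within 5 kb, 0.417% at ends only, and 2.08% to 3.33% with 1 library left out. The share of regions at a gene end (77.3%) was 82.3% at the median score, 85.7% with equal lengths and within 5 kb, 72.8% within 500 bp, and 69.2% to 77.3% with 1 library left out. When a library was left out, a consensus region of its group needed a peak of the remaining library alone. Consensus shares of that group then became single-library shares, so these ranges do not measure how stable the 2-library shares were. Leaving out a siFOXA1 library did not change the share of genes with a siNS consensus region.

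With the replicate number as a block, the differences of 65.4 and 3.53 points gave exact p = 0.5, the smallest that 2 pairs allow. Deviations of same-numbered libraries correlated at 0.0394 over 2602 regions, so the numbers were not taken to pair the libraries.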
